A study of Mus musculus with 2 samples.

Results

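The genes described are 4 tissue inhibitors of metalloproteinases (Timp1, Timp2, Timp3 and Timp4) and 6 secreted or membrane-bound metalloproteases (Mmp2, Mmp14, Mmp15, Adamts1, Adamts5 and Adamts9) in single cells of the adult mouse brain. They were taken by symbol, and all 10 were found among the 26033 genes of both count matrices. The study sorted mural cells, fibroblasts, endothelial cells, astrocytes, border-associated macrophages (BAMs) and microglia from whole brain by surface antigens and read them with droplet-based 3′ single-cell RNA sequencing. Mutant mice were Mrc1Cre:Csf1rfl/fl, where a recombinase driven by the mannose receptor gene Mrc1 acts on floxed alleles of Csf1r, the receptor gene on which brain macrophages depend. Controls were Csf1rfl/fl mice, so they carry the same floxed alleles without Cre. There was 1 library per genotype, so no comparison between genotypes has a replicate check or a p-value, and all intervals below cover counting error at 95% confidence only. The sources used here do not give the animals' exact age or how many were pooled per library.

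The mutant library held 8735 barcodes and 82806348 unique molecular identifiers (UMIs), against 8739 barcodes and 85716531 UMIs in the control library. After removal of shallow barcodes and doublets, 7782 mutant and 7925 control cells remained, of which 7055 and 7185 fell into 11 classes named from fixed markers. Cell classes are written "X-like" because they rest on RNA alone. The targeted gene Csf1r had 1281 CPM in mutant and 1581 CPM in control BAM-like cells, and 1920 CPM in mutant and 2392 CPM in control microglia-like cells, where CPM is UMIs scaled to 1000000 UMIs of the class. The deleted exon is not named in the sources used here, and a 3′ tag outside it would not report the deletion, so these values do not check the labels. BAM-like cells numbered 156 in the mutant and 411 in the control. Cell numbers follow the sort as well as the tissue. The pericyte-like class, with 55 mutant and 27 control cells, held all 10 microglial markers, and its choroid plexus markers summed to 11780 CPM in the mutant and 78749 CPM in the control. Its values are given only where the order of classes needs them.

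Metalloproteases cut matrix proteins, proteoglycans and cell-surface proteins outside the cell. Matrix metalloproteinases (MMPs) and the related ADAMTS enzymes share a zinc-dependent active site, and TIMPs block it by binding it directly. TIMP2 also helps MMP14, a membrane-anchored enzyme, to activate secreted proMMP2, so an inhibitor and its targets meet in the same complex. At brain vessels the substrates include basement membrane and the hyaluronan-bound proteoglycans around astrocyte endfeet. TIMP3 differs from the other inhibitors in staying bound to the matrix, and it also inhibits ADAMTS and ADAM enzymes.

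Timp1, Timp3 and Timp4 lie inside synapsin genes that are read from the opposite strand, in the GENCODE annotation of GRCm38. Timp1 lies at chrX:20870166-20874735 on the plus strand within Syn1, and Timp3 at chr10:86300372-86349506 on the plus strand within Syn3. Timp4 lies at chr6:115241892-115252205 on the minus strand within Syn2. Timp2 stands apart from any synapsin gene, at chr11:118301069-118355740 on the minus strand. Among the proteases, Mmp2 lies at chr8:92827291-92853420 and Mmp15 at chr8:95352268-95375080, both on the plus strand, and Mmp14 at chr14:54431612-54445364 on the plus strand. Adamts1 (chr16:85793827-85803113) and Adamts5 (chr16:85856173-85901828) are neighbours on the minus strand, 53059 bases apart, and Adamts9 lies at chr6:92772699-92943492 on the minus strand.

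The promoters of the inhibitor genes are shown because the 4 inhibitor genes differed in their levels over the cell classes, as described below. RefSeq sequences of GRCm38.p6 were available for 8 of the 10 genes, each with 250 bases before and 50 bases after the start. The windows are chrX:20869916-20870215 (plus strand) for Timp1, chr11:118355362-118355661 (minus) for Timp2, chr10:86300162-86300461 (plus) for Timp3 and chr6:115252156-115252455 (minus) for Timp4. They are written 5′ to 3′ on the strand of the gene, and capitals mark matches to the GC box GGGCGG or its reverse complement.
Timp1 promoter: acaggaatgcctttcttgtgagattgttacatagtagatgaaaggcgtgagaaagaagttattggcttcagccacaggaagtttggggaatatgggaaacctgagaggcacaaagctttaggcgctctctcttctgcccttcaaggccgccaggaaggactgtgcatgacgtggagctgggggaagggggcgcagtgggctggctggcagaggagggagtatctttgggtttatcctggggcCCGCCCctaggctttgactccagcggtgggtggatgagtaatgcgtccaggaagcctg
Timp2 promoter: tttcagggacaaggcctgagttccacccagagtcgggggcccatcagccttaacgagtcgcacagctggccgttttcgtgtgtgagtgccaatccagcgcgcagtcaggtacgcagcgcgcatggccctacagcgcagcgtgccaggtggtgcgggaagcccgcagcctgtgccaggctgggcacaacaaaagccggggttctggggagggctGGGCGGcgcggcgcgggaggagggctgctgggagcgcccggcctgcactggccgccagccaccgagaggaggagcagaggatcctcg
Timp3 promoter: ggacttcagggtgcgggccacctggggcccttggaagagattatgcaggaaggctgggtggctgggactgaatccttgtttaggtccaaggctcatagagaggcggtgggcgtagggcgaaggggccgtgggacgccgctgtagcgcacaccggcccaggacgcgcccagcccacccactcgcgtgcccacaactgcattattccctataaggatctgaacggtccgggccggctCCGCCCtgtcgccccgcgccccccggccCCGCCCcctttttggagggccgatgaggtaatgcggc
Timp4 promoter: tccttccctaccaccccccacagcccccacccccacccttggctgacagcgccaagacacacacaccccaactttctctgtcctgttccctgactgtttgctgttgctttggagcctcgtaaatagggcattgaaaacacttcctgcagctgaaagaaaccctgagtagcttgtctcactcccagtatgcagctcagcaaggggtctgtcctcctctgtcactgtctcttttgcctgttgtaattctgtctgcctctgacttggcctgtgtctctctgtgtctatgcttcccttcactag
The GC box was present at 1 position in the Timp1 and Timp2 windows and at 2 positions in the Timp3 window, and was not found in the Timp4 window. It occurred in 35.7% of 32851 RefSeq promoter windows of the same length. The TATA motif TATAAA, searched on both strands, was found in none of the 4 inhibitor windows and in 13.6% of all windows. An exact match to the AP-1 motif TGANTCA, which is bound by Fos and Jun proteins, was found in none of the 8 windows and in 7.81% of all windows. Variants of this motif were not searched, so these counts do not show that a window lacks an AP-1 site. The searched motifs overlapped in no window of the 8 genes. The G and C content was 53.3% for Timp4 and 55.0% for Timp1, against 67.0% for Timp3 and 68.7% for Timp2.

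The fibroblast clusters and astrocyte-like cells had the highest summed protease levels, while the leading inhibitor differed between classes. Of the 10 genes, 7 (Timp1, Timp2, Mmp2, Mmp14, Adamts1, Adamts5 and Adamts9) had their highest level in a fibroblast cluster in both libraries. Of 12542 genes that reached 20 CPM in some class, 10.6% did so. The Slc6a13 fibroblast cluster met 8 of the 10 fixed fibroblast markers and the Slc47a1 fibroblast cluster only 3, so the latter's name is a working label. Because 3′ counting aims at 1 tag per molecule, CPM values of different genes are set side by side without a length correction. The sources used here do not state whether intronic reads were counted, and the 10 genes span from 4570 to 170794 bases. An effect of gene length on comparisons between genes was not tested. The other 3 genes peaked elsewhere, Timp4 in astrocyte-like cells (as did 9.36% of the 12542 genes in both libraries), Mmp15 in endothelial-like or pericyte-like cells, and Timp3 in Slc6a13 fibroblast-like cells of the mutant. In the control, Timp3 was at 933 CPM (857 to 1014) in endothelial-like and 885 CPM (813 to 961) in Slc6a13 fibroblast-like cells, whose intervals overlapped.

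**Figure D1:**
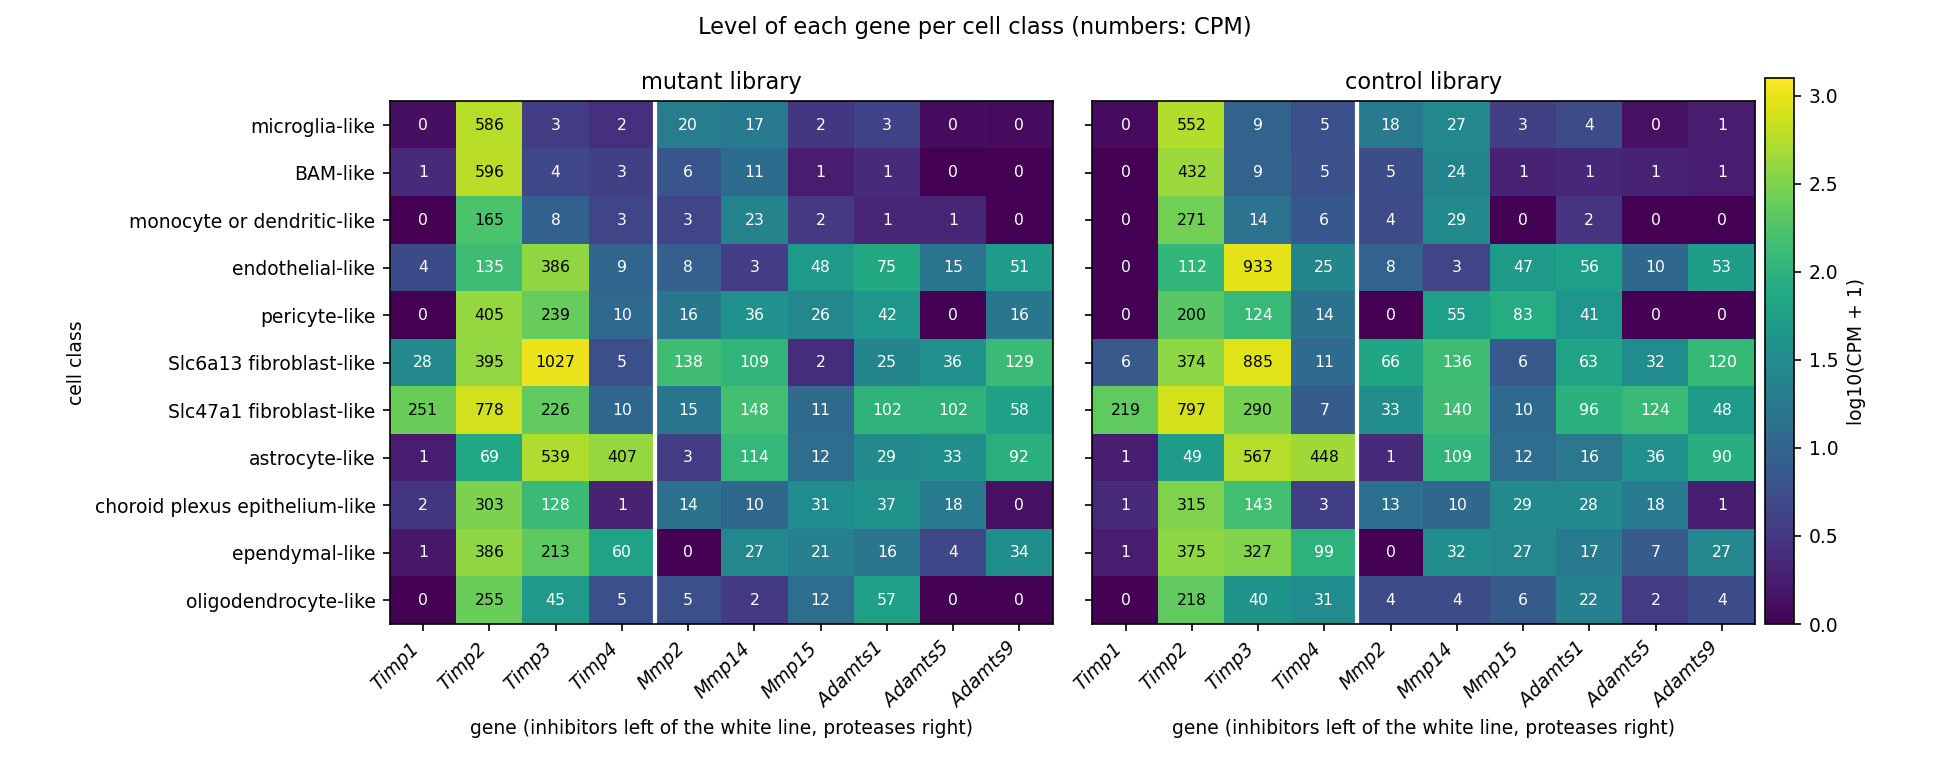
Level of each gene (columns, inhibitors left of the white line) in each cell class (rows), mutant library on the left and control library on the right, as CPM printed in the cells and as log10(CPM + 1) in the colour. Timp2 is present in every class, Timp1 is bright only in Slc47a1 fibroblast-like cells (251 CPM mutant, 219 CPM control) and Timp4 is highest in astrocyte-like cells (407 CPM mutant, 448 CPM control).

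Timp2, which encodes the inhibitor that also takes part in MMP2 activation, was the most evenly spread of the 4 inhibitors. Slc47a1 fibroblast-like cells had the highest level, at 778 CPM in the mutant and 797 CPM in the control. Among the macrophage classes, microglia-like cells had 586 CPM in the mutant and 552 CPM in the control, and BAM-like cells had 596 CPM in the mutant and 432 CPM in the control. No other class outside the Slc47a1 fibroblast-like cells exceeded both of these macrophage classes in either library. Timp2 UMIs were seen in 87.2% of microglia-like cells of the mutant and 89.0% of those of the control, at a median of 8100 and 8188 UMIs per cell. After each cell was thinned to 2000 UMIs, the shares were 64.4% in the mutant and 64.9% in the control. Astrocyte-like cells had the lowest level of all classes in both libraries, at 69.4 CPM in the mutant and 49.0 CPM in the control. That is 11.8% of the microglial level in the mutant and 8.87% in the control, beside a median of 6.28% and 4.09% for the 10 microglial markers in the same cells. In endothelial-like cells Timp2 stood at 23.1% of its microglial level in the mutant and 20.2% in the control, and the microglial markers at 23.2% and 14.6%. The part of free microglial RNA in the low Timp2 values was not tested.

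Timp1, which encodes an inducible secreted inhibitor, was found mainly in a single class. Slc47a1 fibroblast-like cells, named after a transporter gene among the fixed fibroblast markers, had 251 CPM (239 to 264) in the mutant and 219 CPM (201 to 238) in the control. The next class, Slc6a13 fibroblast-like cells, had 28.0 CPM in the mutant and 6.31 CPM in the control. The intervals of the first and the second class did not overlap in either library. A Timp1 UMI was present in 62.5% of mutant and 58.6% of control Slc47a1 fibroblast-like cells, at median depths of 9851 and 9843 UMIs. In microglia-like cells, at median depths of 8100 and 8188 UMIs, the shares were 0.295% and 0.220%. The overlapping gene Syn1 had 7.14 CPM in mutant and 5.80 CPM in control Slc47a1 fibroblast-like cells, so its level was far below that of Timp1 there.

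Timp3, which encodes the matrix-bound inhibitor, was high in structural cells and near 0 in macrophages. Slc6a13 fibroblast-like cells had 1027 CPM in the mutant and 885 CPM in the control. Astrocyte-like cells had 539 CPM in the mutant and 567 CPM in the control, with a UMI in 80.6% of mutant and 85.6% of control cells. A Timp3 UMI was thus present in most astrocyte-like cells. Endothelial-like cells had 386 CPM in the mutant and 933 CPM in the control. Ependymal-like cells had 213 CPM in the mutant and 327 CPM in the control, and choroid plexus epithelium-like cells had 128 CPM in the mutant and 143 CPM in the control. Microglia-like cells had 2.69 CPM in the mutant and 8.71 CPM in the control, with a UMI in 2.03% and 6.48% of cells. Syn3, on the other strand, stayed at or below 51.9 CPM in every class of both libraries.

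Timp4 encodes the inhibitor with the narrowest tissue distribution and was an astrocyte transcript in these libraries. Astrocyte-like cells had 407 CPM (383 to 432) in the mutant and 448 CPM (437 to 459) in the control, with a UMI in 69.9% and 76.7% of cells. Ependymal-like cells followed with 59.6 CPM in the mutant and 99.3 CPM in the control, and their intervals did not overlap with those of astrocyte-like cells. The remaining 9 classes had at most 30.7 CPM in either library. Syn2, which overlaps Timp4 on the opposite strand, had 294 CPM in mutant and 268 CPM in control astrocyte-like cells. The sources used here do not say whether counting used the strand. Without it, reads from the stretch that Timp4 and Syn2 share could not be told apart.

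Mmp2, the gene of a secreted gelatinase, was highest in Slc6a13 fibroblast-like cells, at 138 CPM (111 to 170) in the mutant and 66.3 CPM (47.8 to 89.6) in the control. Slc47a1 fibroblast-like cells had 15.1 CPM in the mutant and 33.2 CPM in the control. The fibroblast clusters thus differed in level in both libraries. Microglia-like cells had 19.6 CPM in the mutant and 17.7 CPM in the control, with a UMI in 13.9% and 13.6% of cells. BAM-like cells had 5.70 CPM in the mutant and 4.57 CPM in the control, and the intervals of the macrophage classes did not overlap in either library. In ependymal-like cells no Mmp2 UMI was found in 107 mutant or 100 control cells.

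Mmp14, the gene of the membrane-anchored activator of proMMP2, had 148 CPM in mutant and 140 CPM in control Slc47a1 fibroblast-like cells. Astrocyte-like cells had 114 CPM in the mutant and 109 CPM in the control, and Slc6a13 fibroblast-like cells had 109 CPM in the mutant and 136 CPM in the control. The first and second class had separate intervals in the mutant but overlapping ones in the control. Microglia-like cells had 17.3 CPM in the mutant and 26.9 CPM in the control. Endothelial-like cells, with 2 Mmp14 UMIs in each library, had 2.68 CPM in the mutant and 3.39 CPM in the control, which left this protease near its detection limit in that class.

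Mmp15, a second membrane-type MMP gene, was the higher of the membrane-type genes in endothelial-like cells, with 48.2 CPM (33.8 to 66.7) in the mutant and 47.4 CPM (31.5 to 68.5) in the control. Choroid plexus epithelium-like cells had 31.2 CPM in the mutant and 29.0 CPM in the control. A UMI was present in 11.5% of mutant and 13.8% of control endothelial-like cells, and in 1.89% of mutant and 2.49% of control microglia-like cells. In the pericyte-like class Mmp15 had 26.0 CPM in 55 mutant cells and 82.9 CPM in 27 control cells, from 5 and 12 UMIs, with intervals that overlapped those of endothelial-like cells.

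The ADAMTS genes encode secreted proteases; ADAMTS1, ADAMTS5 and ADAMTS9 all cut proteoglycans such as versican and aggrecan. Adamts1 had 102 CPM in mutant and 95.8 CPM in control Slc47a1 fibroblast-like cells. Endothelial-like cells had 75.0 CPM in the mutant and 55.9 CPM in the control, and its interval overlapped that of the fibroblast class in the mutant only. Choroid plexus epithelium-like cells had 36.5 CPM in the mutant and 28.5 CPM in the control. Adamts5, its chromosomal neighbour, had the same highest class, at 102 CPM in the mutant and 124 CPM in the control. It was far lower in endothelial-like cells, with 14.7 CPM in the mutant and 10.2 CPM in the control. Adamts9 peaked in Slc6a13 fibroblast-like cells, at 129 CPM in the mutant and 120 CPM in the control, and its next class was astrocyte-like cells with 91.7 CPM in the mutant and 89.7 CPM in the control. The intervals of these 2 classes overlapped in both libraries. In choroid plexus epithelium-like cells Adamts9 was at 0.365 CPM in the mutant and 0.829 CPM in the control, although Adamts1 was well detected there.

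Summed over genes, inhibitor UMIs outnumbered protease UMIs in every class of both libraries. The 6 proteases together reached 439 CPM in mutant and 423 CPM in control Slc6a13 fibroblast-like cells, and 436 CPM in mutant and 451 CPM in control Slc47a1 fibroblast-like cells. Astrocyte-like cells followed with 282 CPM in the mutant and 264 CPM in the control. BAM-like cells were the lowest, with 19.2 CPM in the mutant and 32.2 CPM in the control. Inhibitors made up 96.9% of the UMIs of the 10 genes in mutant and 93.3% in control BAM-like cells, and 93.2% in mutant and 91.5% in control microglia-like cells. In Slc47a1 fibroblast-like cells the inhibitor share was 74.4% in both libraries. Timp2 alone made up 99.2% of the inhibitor UMIs in mutant and 97.6% in control microglia-like cells. Endothelial-like cells had an inhibitor share of 72.8% (68.9 to 76.5) in the mutant and 85.8% (83.0 to 88.2) in the control.

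**Figure D2:**
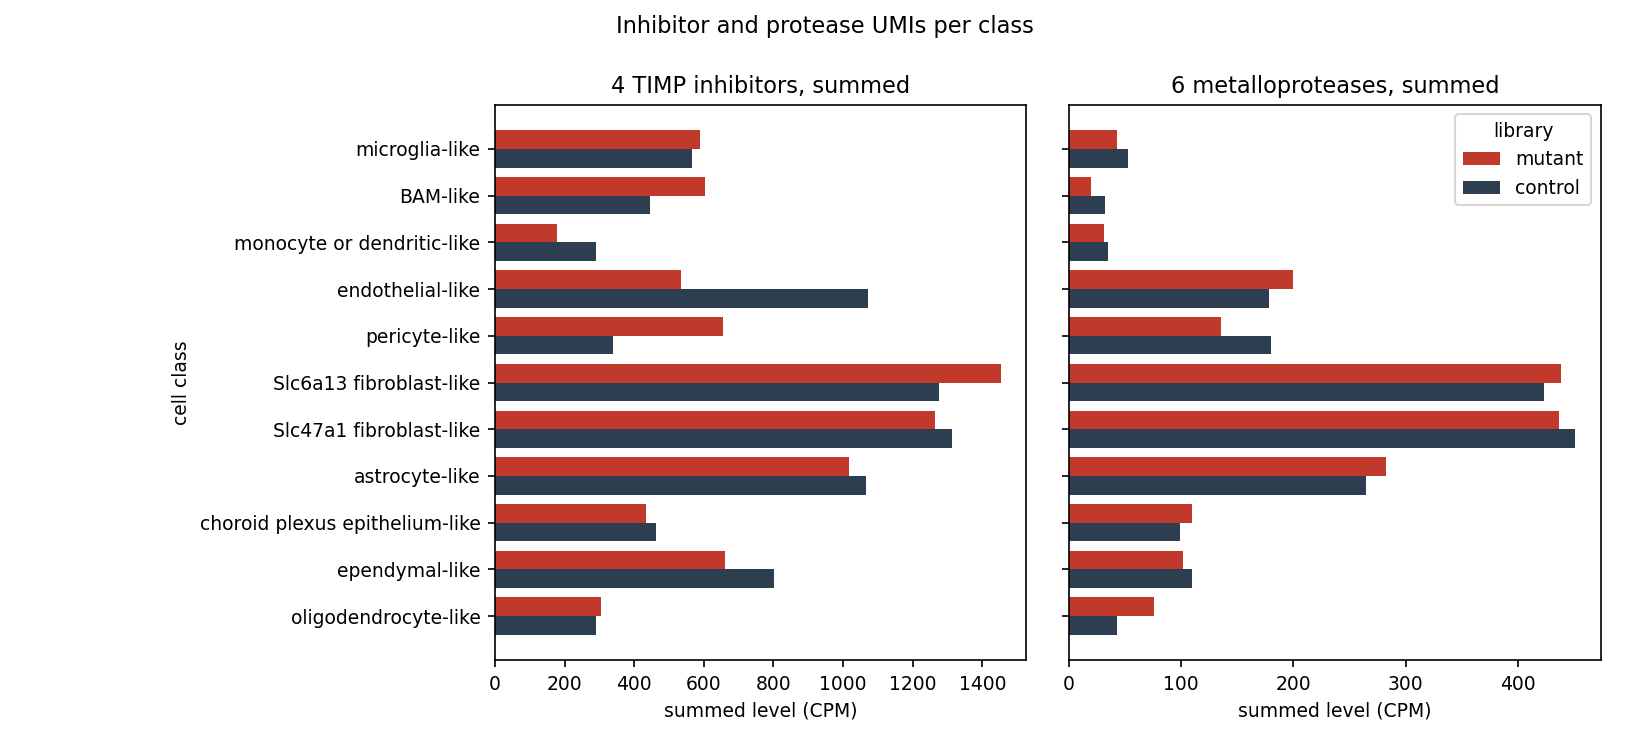
Summed level in CPM (horizontal axes) of the 4 inhibitors (left panel) and the 6 proteases (right panel) per cell class, with the mutant bar above the control bar in each class. The fibroblast clusters lead the inhibitor panel in the mutant and the control and, with astrocyte-like cells, the protease panel, and BAM-like and microglia-like cells have inhibitor with at most 52.7 CPM of protease.

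The astrocyte class held 4 clusters with different sets of these genes. Cluster 9 had the highest Timp3, at 808 CPM in the mutant and 739 CPM in the control, and the highest Mmp14, at 163 CPM in the mutant and 136 CPM in the control. Cluster 21 had the highest Timp4, at 1278 CPM in the mutant and 1452 CPM in the control, and the highest Adamts1, at 135 CPM in the mutant and 99.3 CPM in the control. It is also marked by Gdf10, which had 612 CPM in mutant and 689 CPM in control cells of that cluster and at most 18.0 CPM in the other 3. Cluster 10 had the highest Adamts9, at 143 CPM in the mutant and 163 CPM in the control, with Timp4 at 116 CPM in the mutant and 112 CPM in the control. In cluster 10 the inhibitor share was 63.1% in the mutant and 57.6% in the control, the lowest of the 4 clusters. Syn2 was highest in cluster 10, at 428 CPM in the mutant and 381 CPM in the control, where Timp4 was lowest. The clusters were built without the 10 genes, but other genes of the same cells defined them, so these values are a description.

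**Figure D3:**
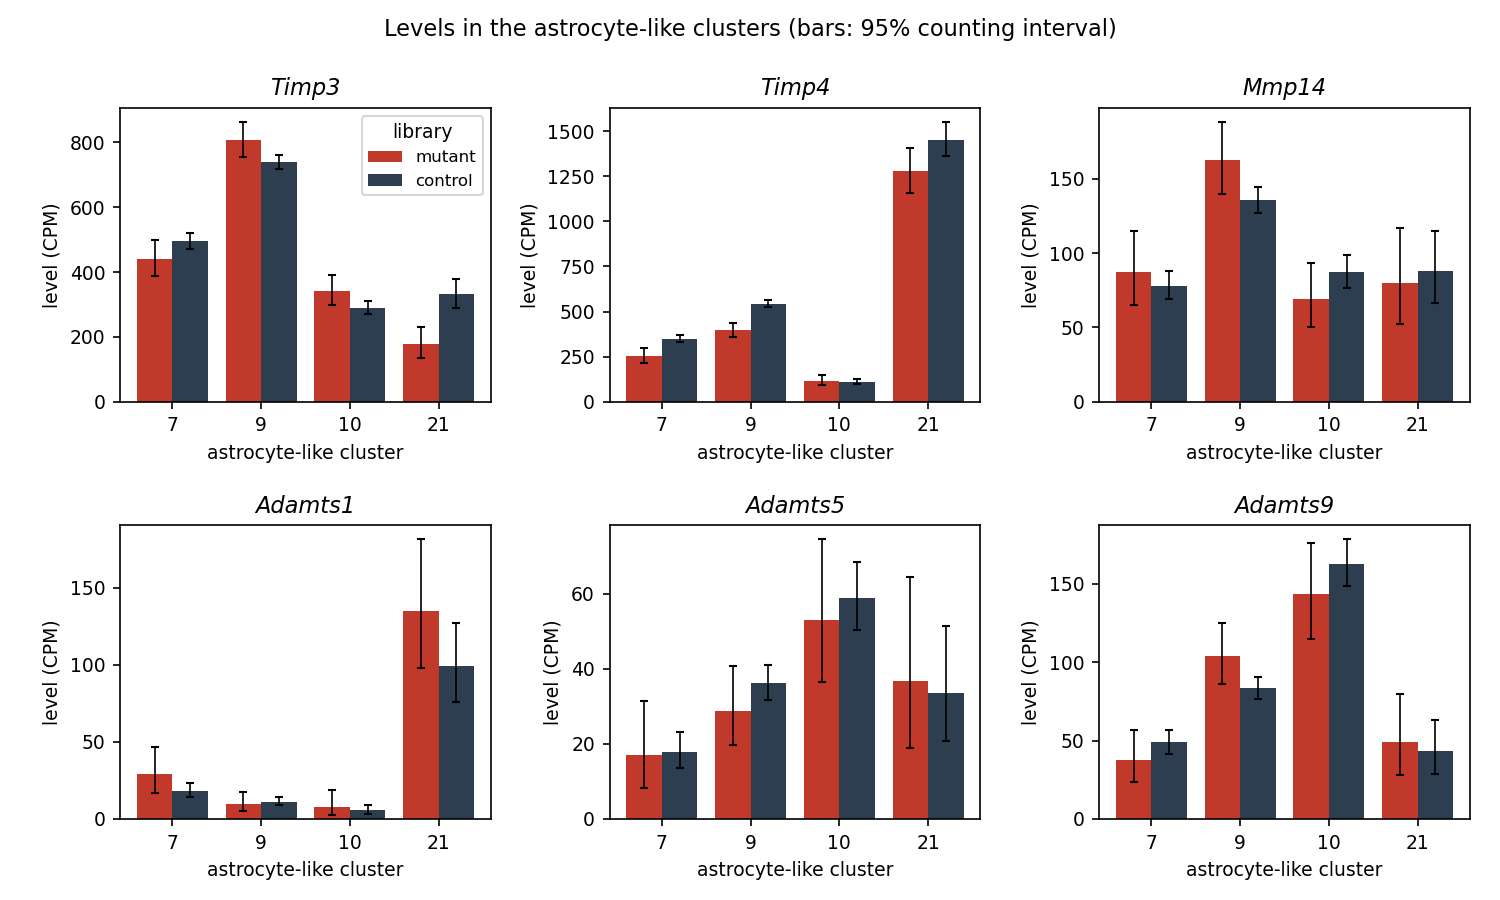
Levels in CPM of 6 genes in the 4 astrocyte-like clusters, mutant bars left of control bars, with 95% counting intervals. Timp4 and Adamts1 are highest in cluster 21, Timp3 and Mmp14 in cluster 9 and Adamts9 in cluster 10, in both libraries, although the mutant intervals of Adamts9 in clusters 9 and 10 overlap.

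The fibroblast clusters also differed from each other. Slc6a13 fibroblast-like cells, 94 in the mutant and 76 in the control, were marked by Slc6a13, with 538 CPM in the mutant and 1036 CPM in the control, and by Dcn. Slc47a1 fibroblast-like cells, 594 in the mutant and 227 in the control, were marked by Slc47a1, with 1701 CPM in the mutant and 1808 CPM in the control. The fibroblast marker Lum was at 7.77 CPM in mutant and 26.5 CPM in control cells of this cluster, against 558 CPM and 535 CPM in the Slc6a13 cluster. Cdh1, a cadherin gene, was at 92.1 CPM and 104 CPM, against 17.1 CPM and 12.6 CPM. The marker Foxc1 was closer, at 298 CPM and 321 CPM against 241 CPM and 388 CPM. The Slc6a13 cluster carried Timp3, Mmp2 and Adamts9 at higher levels, and the Slc47a1 cluster carried Timp1, Timp2 and Adamts5 at higher levels, with separate intervals in both libraries. For Adamts1 and Mmp14 the intervals of the clusters were separate in the mutant and overlapped in the control. In the mutant, 4 of the 94 Slc6a13 fibroblast-like cells had between 3.32% and 23.0% of their UMIs from the collagen gene Col1a1, while no control cell exceeded 0.532%. Those 4 cells had 19 of the 89 Mmp2 UMIs of the cluster and none of its 660 Timp3 UMIs.

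**Figure D4:**
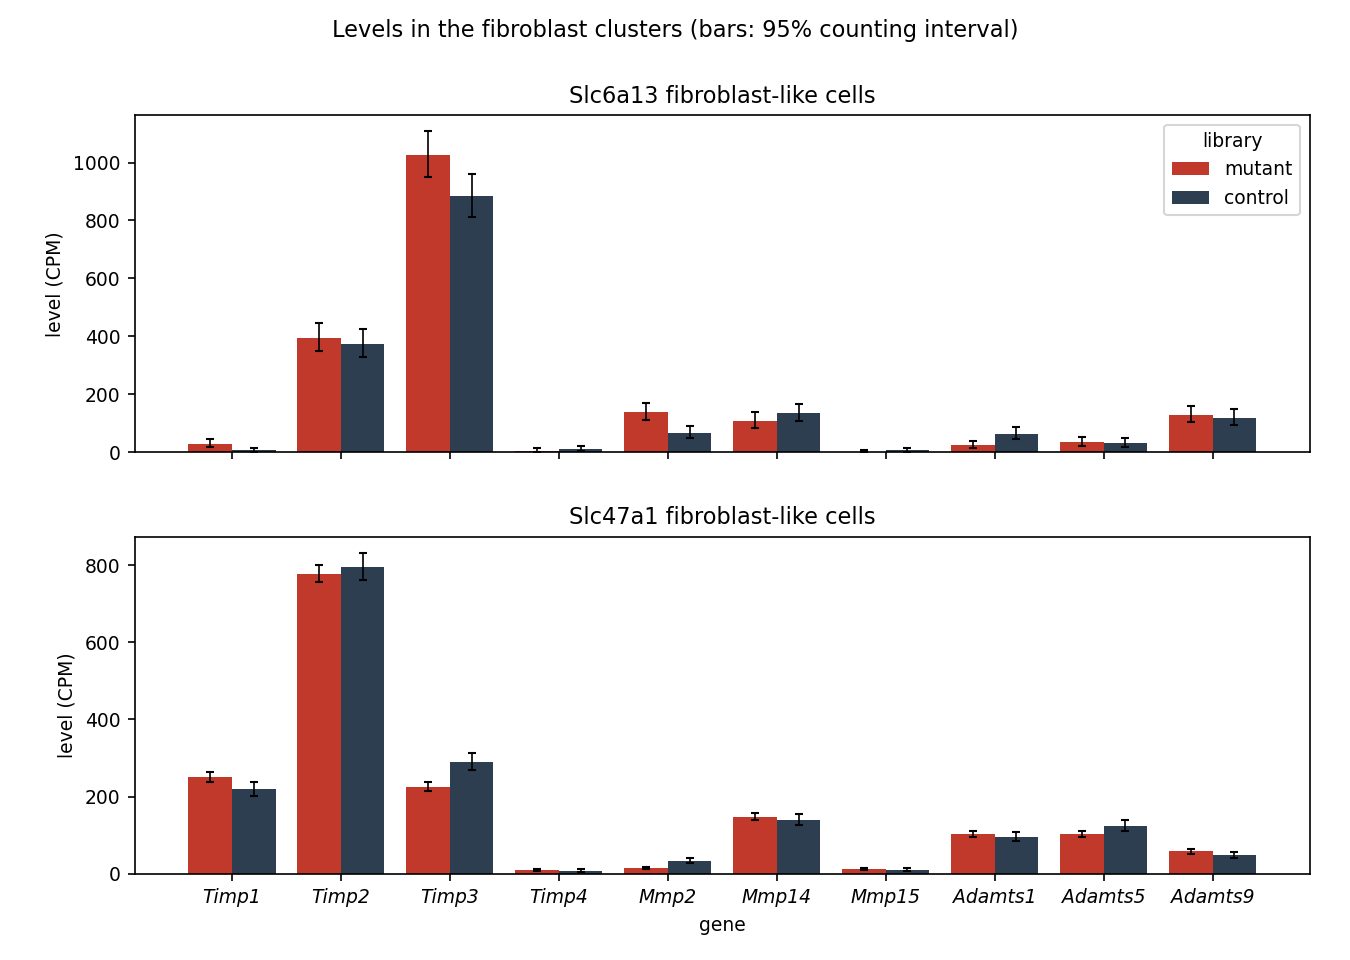
Levels in CPM of the 10 genes in Slc6a13 fibroblast-like cells (upper panel) and Slc47a1 fibroblast-like cells (lower panel), mutant bars left of control bars, with 95% counting intervals. Timp3 leads the upper panel (1027 CPM mutant, 885 CPM control) and Timp2 the lower one (778 CPM mutant, 797 CPM control).

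The mutant and control libraries were compared gene by gene in the 8 classes with at least 50 cells in each. A gene was counted as differing when it had at least 50 UMIs over both libraries, a ratio of at least 1.5 or at most 1/1.5 and an interval that excluded 1. Of 80 pairs of gene and class, 53 had enough UMIs, of which 2 were higher in the mutant, 10 were lower and 41 met neither condition. Over the same classes, 2.61% of 74484 measured pairs of any gene and class were higher and 4.39% lower. Of the 10 lower pairs, 8 were of Timp3, Timp4 or Mmp14. The median log2 ratio of the measured members lay between -0.41 in microglia-like and 0.09 in Slc6a13 fibroblast-like cells, and that of all measured genes between -0.04 and 0.01 over the 8 classes.

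**Figure D5:**
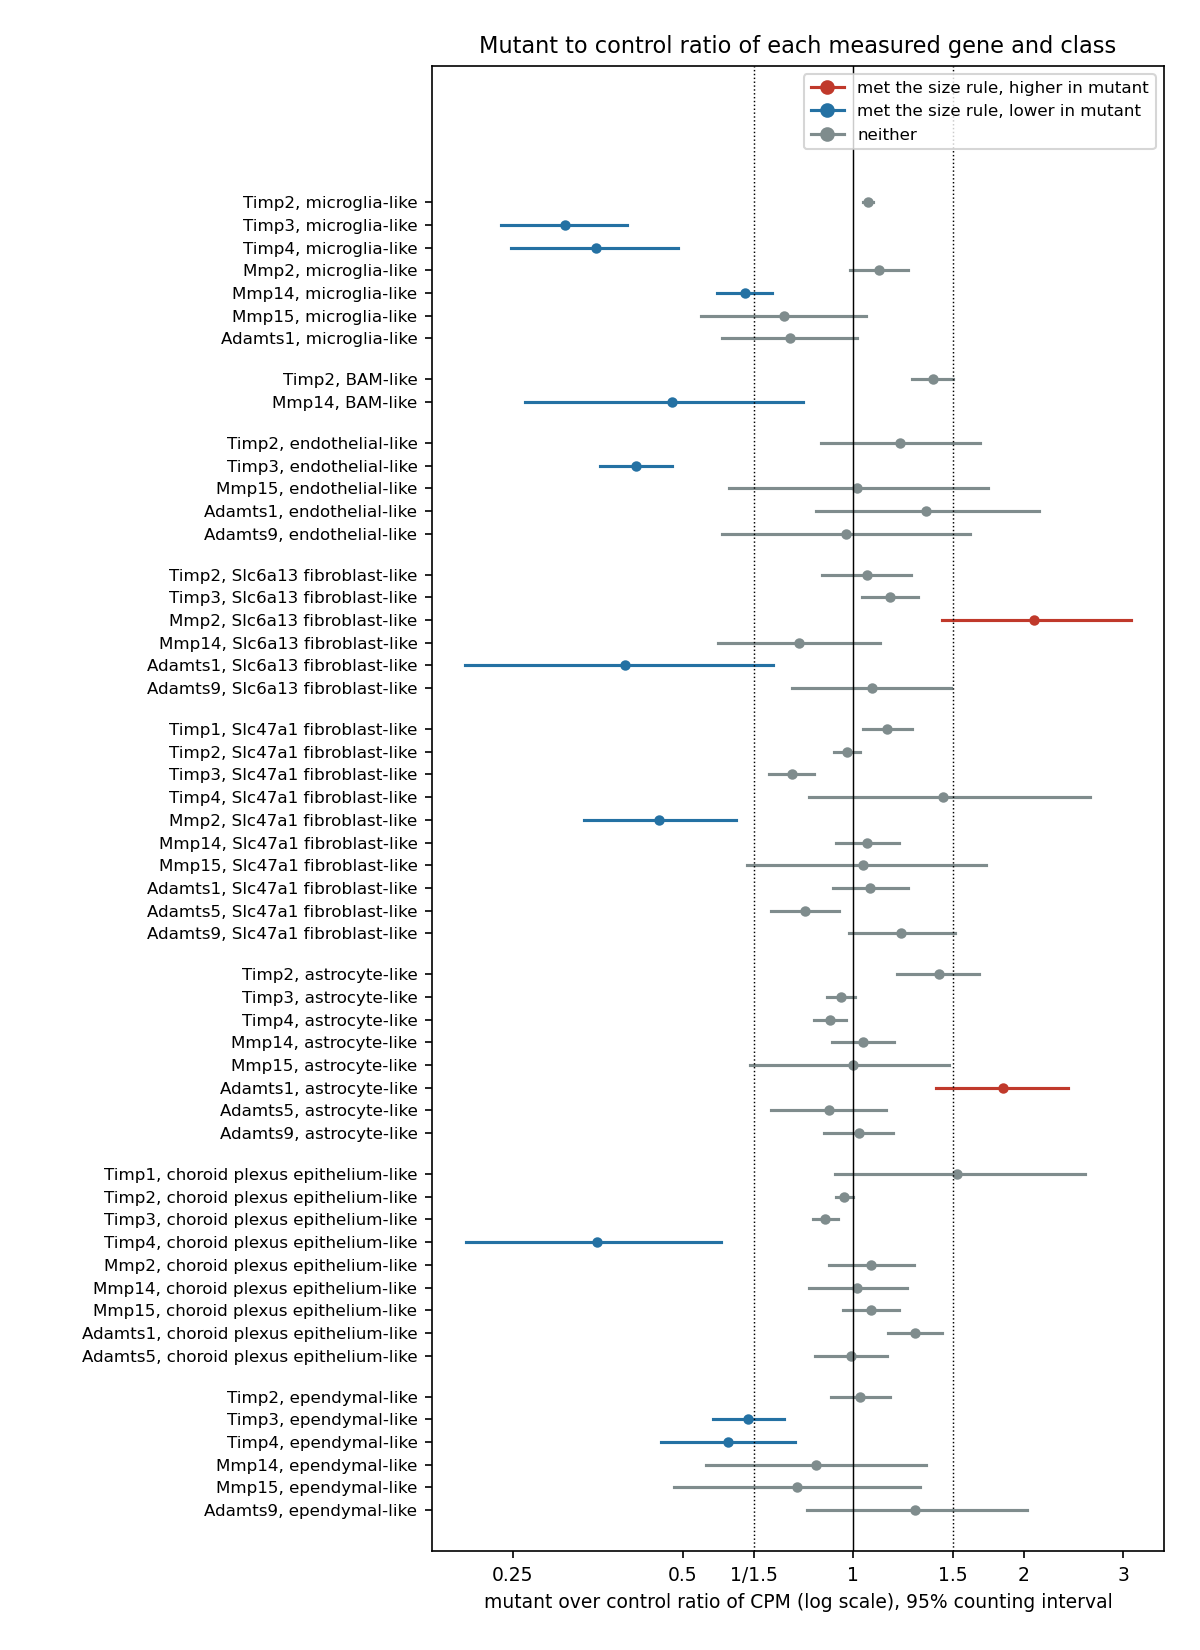
Ratio of CPM, mutant over control, on a log axis for each of the 53 measured pairs of gene and class, with the 95% counting interval. Red points are the 2 pairs higher in the mutant, blue points the 10 lower pairs and grey points the 41 others; dotted lines mark 1.5 and 1/1.5.

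In microglia-like cells 3 of 7 measured genes were lower in the mutant and 0 were higher, where 7.42% of all 12859 measured genes were lower and 1.64% higher. Mmp14 had a ratio of 0.64 (0.57 to 0.72), and its level was lower in the mutant in all 6 microglial clusters, at 14.1 to 23.3 CPM against 21.1 to 33.8 CPM in control clusters. Mmp14 UMIs were seen in 12.3% of microglia-like cells of the mutant and 19.0% of those of the control, and in 3.45% and 4.97% after thinning. Timp3 had a ratio of 0.31 (0.24 to 0.40) and Timp4 of 0.35 (0.25 to 0.49). Astrocyte genes moved with them. The 10 astrocyte markers were at a median of 0.434% of their astrocyte level in mutant and 1.20% in control microglia-like cells, and 9 of the 10 were lower by the same rule. Timp3 was at 0.499% and 1.54% of its astrocyte level, and Timp4 at 0.400% and 1.04%. Mmp14 was at 15.2% of its astrocyte level in mutant and 24.6% in control microglia-like cells, above the highest of the 10 markers. Markers of hormone-secreting cells summed to 7.41 CPM in mutant and 4637 CPM in control microglia-like cells, and the part of other cells' RNA in the Timp3 and Timp4 values was not tested. Timp2 had a ratio of 1.06 (1.04 to 1.08) and Mmp2 met neither condition.

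BAM-like cells had 3024 CPM of Mrc1, the gene that drives the Cre, in the mutant and 4237 CPM in the control. In this class 1 of 2 measured genes was lower, against 3.65% of 8865 genes lower and 2.88% higher. Mmp14 had 11.4 CPM in the mutant and 23.8 CPM in the control, from 16 and 99 UMIs (ratio 0.48, interval 0.26 to 0.82). Timp2 had a ratio of 1.38, which did not reach the fold of 1.5. Genes of the cell isolation response also differed in the macrophage classes. Of the measured genes of this list, which holds Fos, Jun and other early response genes, 6 of 14 were lower in the mutant in BAM-like cells and 5 of 14 in microglia-like cells. The list summed to 1345 CPM in mutant and 1971 CPM in control BAM-like cells, and to 596 CPM and 742 CPM in microglia-like cells. Astrocyte markers summed to 118 CPM in mutant and 252 CPM in control BAM-like cells, with 5 of 6 measured ones lower. Their median was 0.268% of the astrocyte level in the mutant and 1.0% in the control, where Mmp14 was at 10.0% and 21.8%. The part of either list in the Mmp14 values was not tested.

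In endothelial-like cells 1 of 5 measured genes was lower, against 4.34% of 5462 genes lower and 3.94% higher. Timp3 had 386 CPM in the mutant and 933 CPM in the control (ratio 0.41, interval 0.36 to 0.48). A UMI was present in 38.3% of mutant and 46.0% of control cells, at median depths of 2408 and 3000 UMIs. The 5 cells with the most Timp3 held 33.0% of its UMIs in the mutant and 33.2% in the control. Its level was higher in cells with a UMI of Plvap, the gene of a protein of fenestrated endothelium, which held 111 of the 288 Timp3 UMIs in the mutant and 371 of 551 in the control. Those cells numbered 10 of 253 in the mutant (3.95%) and 22 of 174 in the control (12.6%), and had 3060 CPM of Timp3 in the mutant and 3155 CPM in the control (ratio 0.97, interval 0.78 to 1.20). Among these Plvap cells, the 5 with the most Timp3 held 83.8% of its UMIs in the mutant and 49.3% in the control. The interval of the ratio does not cover that spread between cells. Median depth of the Plvap cells was 4140 UMIs in the mutant and 5219 UMIs in the control, and 1.36% of mutant and 1.54% of control microglia-like cells also had a Plvap UMI. The remaining endothelial-like cells had 249 CPM in the mutant and 381 CPM in the control (ratio 0.65, interval 0.53 to 0.81). This division was chosen after the values were seen. The Plvap cells had few UMIs of Cldn5, a tight-junction gene, at 55.1 CPM in the mutant and 867 CPM in the control, against 4625 CPM and 5196 CPM in the other cells. Rgs5, a mural cell gene, had 2013 CPM in the mutant and 102 CPM in the control Plvap cells, from 73 and 12 UMIs. In the other cells it went the opposite way, with 121 CPM in the mutant and 286 CPM in the control, from 86 and 135 UMIs. Acta2, a smooth muscle gene, had 0 UMIs in the mutant and 27 UMIs (57.1 CPM) in the control in those other cells. The part of mural cell RNA in the Timp3 values was not tested. The summed levels of these groups of cells thus differed in other genes too. Whether a few cells held most of the Rgs5 UMIs was not examined. Mmp15, Adamts1 and Adamts9 met neither condition in this class, with ratios of 1.02, 1.34 and 0.97. Marker lists of other cell types differed in both directions. Microglial markers summed to 5197 CPM in the mutant and 3372 CPM in the control, with 5 of 10 higher. Erythroid markers summed to 390 CPM in the mutant and 776 CPM in the control, with 4 of 4 measured lower. Of the astrocyte markers, 2 of 5 measured were lower. The part of other cells' RNA in the Timp3 value was not tested.

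In Slc6a13 fibroblast-like cells 1 of 6 measured genes was higher and 1 lower, against 8.4% of 5133 genes higher and 7.36% lower. Mmp2 had a ratio of 2.09 (1.43 to 3.09), and of 1.83 (1.23 to 2.74) without the 4 mutant cells rich in Col1a1. The share of cells with an Mmp2 UMI was 31.9% in the mutant and 30.3% in the control. Adamts1 had 24.9 CPM in the mutant and 63.1 CPM in the control, from 16 and 40 UMIs (ratio 0.39, interval 0.21 to 0.72). In 3 alternative settings Adamts1 no longer met the rule. Some marker lists of other cell types were also lower in mutant Slc6a13 fibroblast-like cells, but not all. The neuron and erythroid lists each had 1 of 1 measured gene higher, and the ependymal and oligodendrocyte lists each had 1 higher and 1 lower. Endothelial markers summed to 356 CPM in the mutant and 669 CPM in the control (3 of 3 measured lower), choroid plexus markers to 5565 CPM and 18164 CPM (3 of 4 lower, 1 higher), and pericyte markers to 1190 CPM and 3497 CPM (1 of 2 lower). Most of the pericyte sum was Vtn, at 916 CPM in the mutant and 3234 CPM in the control, which is also among the leading genes of this cluster. The part of other cells' RNA in the Adamts1 value was not tested.

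In Slc47a1 fibroblast-like cells 1 of 10 measured genes was lower and 0 were higher, against 2.73% of 10557 genes lower and 1.93% higher. Mmp2 had 15.1 CPM in the mutant and 33.2 CPM in the control (ratio 0.45, interval 0.33 to 0.62). Its UMIs were seen in 9.93% of these cells of the mutant and 15.9% of those of the control. Of the isolation response genes, 9 of 13 measured were lower in the mutant in this class. Timp1, Timp2 and Mmp14 kept ratios of 1.15, 0.98 and 1.06, and the 3 ADAMTS genes lay between 0.82 and 1.21.

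In astrocyte-like cells 1 of 8 measured genes was higher and 0 were lower, against 3.36% of 11964 genes higher and 1.7% lower. Adamts1 had 29.2 CPM in the mutant and 15.9 CPM in the control (ratio 1.84, interval 1.40 to 2.40). Cluster 21, with the highest Adamts1, made up 11.8% of mutant and 4.68% of control astrocyte-like cells. Without it the ratio was 1.20, and within cluster 21 it was 1.36 (0.90 to 2.04). With barcodes above 10% mitochondrial UMIs left out, the class had a ratio of 1.06. Marker lists of other cell types differed in both directions. Choroid plexus markers summed to 6135 CPM in the mutant and 2965 CPM in the control, with 6 of 8 measured higher. Higher ones were also 3 of 10 microglial and 3 of 6 BAM markers, while 4 of 5 erythroid and 3 of 5 oligodendrocyte markers were lower. The part of other cells' RNA in this Adamts1 value was not tested. Timp3 and Timp4 had ratios of 0.95 and 0.91 over the class. Timp4 was lower in clusters 7 and 9 by itself, with ratios of 0.72 and 0.73 that did not reach the fold of 1.5. The class had 382 cells in the mutant and 1668 in the control.

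In choroid plexus epithelium-like cells 1 of 9 measured genes was lower and 0 were higher, against 3.81% of 11415 genes lower and 0.806% higher. Timp4 had 0.973 CPM in the mutant and 2.76 CPM in the control (ratio 0.35, interval 0.21 to 0.58). It stood at 0.239% and 0.617% of its astrocyte level, beside a median of 0.280% and 0.650% for the astrocyte markers. Of the 10 astrocyte markers, 8 were lower in the mutant in this class by the same rule. The part of other cells' RNA in the Timp4 value was not tested. The other 8 measured members, Timp2, Timp3, Mmp2, Mmp15, Adamts1 and Adamts5 among them, met neither condition.

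In ependymal-like cells 2 of 6 measured genes were lower and 0 were higher, against 5.46% of 8229 genes lower and 1.63% higher. Timp3 had a ratio of 0.65 (0.56 to 0.75) and Timp4 of 0.60 (0.46 to 0.79). Ependymal-like cells with a Timp4 UMI made up 36.4% in the mutant and 38.0% in the control, and those with a Timp3 UMI 82.2% and 78.0%, so the shares of cells with a UMI were close. Astrocyte markers, some of which ependymal cells share, summed to 2296 CPM in mutant and 2784 CPM in control ependymal-like cells, and 4 of 10 were lower. Their part in these ratios was not tested.

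Other genes of the pathway were read from lists chosen with earlier results known. Counted as pairs of gene and class over the 8 compared classes, 1 of 17 measured pairs of other MMP genes was higher in the mutant and 2 were lower. Of 43 pairs of other ADAMTS and ADAMTS-like genes, 0 were higher and 6 lower. Of 47 pairs of ADAM genes, 2 were higher and 4 lower, and of 83 pairs of inhibitors and regulators, 6 were higher and 5 lower. Of 57 pairs of substrate genes, 2 were higher and 12 lower, and the astrocyte gene Bcan, described below, was among the lower ones in several classes. The shares over all genes were the 2.61% higher and 4.39% lower given above. Of 19 other MMP genes, at most 3 reached 20 CPM in a class. Mmp16, another membrane-type MMP, had 336 CPM in mutant and 288 CPM in control Slc47a1 fibroblast-like cells, more than any MMP among the 10 genes. In Slc6a13 fibroblast-like cells it had 174 CPM in the mutant and 63.1 CPM in the control (ratio 2.76, interval 1.91 to 4.07), with a ratio of 2.60 without the cells rich in Col1a1. Mmp9, the other gelatinase, reached 20 CPM only in BAM-like cells among the classes compared, with 53.4 CPM in the mutant and 68.3 CPM in the control. Mmp28 led the list in endothelial-like cells, with 66.9 CPM in the mutant and 49.1 CPM in the control, and was lower in mutant astrocyte-like cells, with a ratio of 0.59.

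Of 21 other ADAMTS and ADAMTS-like genes, 10 reached 20 CPM in Slc47a1 fibroblast-like cells, led by Adamtsl3 with 787 CPM in the mutant and 686 CPM in the control. Slc6a13 fibroblast-like cells were led by Adamts12, with 471 CPM in the mutant and 374 CPM in the control. Adamts20 was an ependymal gene, with 751 CPM in the mutant and 888 CPM in the control, and Adamts16 led the list in microglia-like cells with 66.9 CPM in the mutant and 73.6 CPM in the control. The lower ones in the mutant included Adamts3 in Slc47a1 fibroblast-like cells (ratio 0.48), Adamts10 in BAM-like cells (0.56) and Adamtsl3 in Slc6a13 fibroblast-like cells (0.49).

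Among 11 genes of the ADAM family, Adam10 was the highest in every class other than Slc6a13 fibroblast-like (Adam12) and ependymal-like cells (Adam22). Microglia-like cells had 395 CPM of Adam10 in the mutant and 355 CPM in the control. In BAM-like cells Adam33 was lower, with 27.8 CPM in the mutant and 84.2 CPM in the control, and Adam8 was higher, with 17.8 CPM in the mutant and 6.98 CPM in the control. In Slc6a13 fibroblast-like cells Adam12 was lower, with 180.4 CPM in the mutant and 405 CPM in the control, and Adam10 was higher with a ratio of 1.55.

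Among 17 further inhibitors and regulators, the cystatin gene Cst3, an inhibitor of cysteine proteases, led in every class other than choroid plexus epithelium-like cells (Bsg), with 52177 CPM in mutant and 52628 CPM in control microglia-like cells. Bsg, whose product induces MMPs, had 9819 CPM in mutant and 8668 CPM in control endothelial-like cells. Reck, a membrane-anchored MMP inhibitor, had 83.0 CPM in endothelial-like cells of both libraries. A2m, a broad protease trap, was higher in mutant astrocyte-like cells, with 101 CPM in the mutant and 56.1 CPM in the control, and Pcsk6, a proprotein convertase, was higher in the same cells with a ratio of 1.59. Sparc, a matricellular protein gene, had a ratio of 4.09 in Slc6a13 fibroblast-like cells and of 1.01 without the 4 mutant cells rich in Col1a1. Of 12 substrate genes, Col4a1, a basement membrane collagen, was lower in endothelial-like cells, with 475 CPM in the mutant and 733 CPM in the control. Lama2, a laminin gene, was higher in Slc6a13 fibroblast-like cells, with 1216 CPM in the mutant and 677 CPM in the control, and the fibronectin gene Fn1 was lower, with 62.2 CPM in the mutant and 155 CPM in the control. Bcan, an astrocyte proteoglycan gene, was lower in microglia-like cells, with a ratio of 0.18. It was also lower in 3 further classes, with ratios of 0.075 (Slc47a1 fibroblasts), 0.21 (choroid plexus epithelium) and 0.61 (ependyma). Of the measured astrocyte markers, 9 of 10, 5 of 7, 8 of 10 and 4 of 10 were lower in these classes, in the order given. In astrocyte-like cells 0 of 10 measured substrate genes were lower. The part of astrocyte RNA in the Bcan values was not tested.

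Genes whose levels ran most like those of each member were found by Pearson correlation of log2(CPM + 1) over the 11 classes of both libraries, among 12532 genes, as a description with classes sharing their library and depth. Slc26a7 and Cpz were nearest to Timp1 (0.97 and 0.96). Tead1 and Gulp1 were nearest to Timp3 (both 0.95), and Ptprz1 and Trim9 to Timp4 (0.96 and 0.95). Timp2 had less close neighbours, Clptm1l and 2210016F16Rik (0.87 and 0.86). Among the proteases, Xbp1 and Col6a3 were nearest to Mmp2 (0.82 and 0.79), Pals2 and P3h3 to Mmp14 (both 0.89), and Npdc1 and Armcx1 to Adamts1 (both 0.92). Rnf14 and Oaz2 were nearest to Mmp15 (0.88 and 0.87). Eci2 and Gfpt2 were nearest to Adamts5 (both 0.91), and 4930578G10Rik and Plpp3 to Adamts9 (0.93 and 0.92).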

How the data were processed

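Droplet 3′ libraries (10x Chromium Next GEM, v3.1 chemistry, per the labels) were deposited as raw UMI counts per gene and barcode, which the authors made with Cell Ranger 7.1.0, per the file headers. The submitters' processing notes name GRCm38.p6 and mm10. The sources used here do not state intron counting, strand use or any correction for ambient RNA.

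Barcodes with at least 500 detected genes were kept, with no cap on mitochondrial UMIs because a cap removed mural cells. Scrublet doublets (2.41% of mutant and 1.93% of control barcodes) were removed. Both libraries were clustered together in scanpy 1.11.5 with 2000 variable genes that excluded the 10 members and the wider lists, 30 principal components, 15 neighbours and Leiden resolution 1, which gave 26 clusters. Clusters were named from fixed markers. At least 3 had to be detected in 25% of the cluster's cells and reach 25% of the highest cluster's CPM. A cluster stayed unnamed when it had under 50 cells, its median mitochondrial share exceeded 25% or it failed the depth rule. It also stayed unnamed when another list led its 10 leading genes, or too few markers were met with none among those genes. The fibroblast names followed the number of fibroblast markers met, not the Slc6a13 or Slc47a1 level. These thresholds were set after clusters had been seen, and 9.34% of cells in each library stayed unnamed. The 2 libraries shared 17 barcodes.

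Counts were summed per class and library, without mitochondrial genes, into CPM with exact Poisson intervals. Shares of cells carry Clopper-Pearson intervals, and ratios exact conditional intervals, computed in scipy 1.17.1. No test between genotypes was possible with 1 library each, and PCR or cell-to-cell spread is not covered. Gene positions came from GENCODE for GRCm38, which matched 25637 identifiers. The 10 members, the marker lists and the wider lists were chosen with earlier results of these data known. Named genes were the members, the highest 2 of each wider list per class and those that met the size rule, of which examples are given, and the 2 genes nearest to each member that reaches 50 CPM. The alternatives tried were a mitochondrial cap, doublets kept, stricter gene and marker limits, other scalings and weights, other UMI and fold minimums, and other clusterings.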

Additional observations from a re-analysis of the deposited data

Results flagged for a closer look

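Mmp2 moved in opposite directions in the fibroblast clusters, with a mutant to control ratio of 2.09 in Slc6a13 fibroblast-like cells and 0.454 in Slc47a1 fibroblast-like cells. Adamts1 also differed in direction, with a ratio of 0.394 in Slc6a13 fibroblast-like cells and 1.84 in astrocyte-like cells. With 1 library per genotype these differences between classes were not tested. Outside the named classes, Timp1 had 270 CPM in the mutant cells of unnamed cluster 24 and no UMI in its 28 control cells. All 59 of these mutant UMIs came from 1 of 23 cells.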

How the results depend on the processing

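The number of pairs higher in the mutant was 2, and it changed to 1 with barcodes above 10% mitochondrial UMIs left out, to 4 with equal weight per cell, to 1 with a 2-fold limit, to 3 with doublets kept, at least 1000 genes, at least 20 UMIs or no minimum, and to 0 with each library clustered alone, where 6 classes, the fibroblast and astrocyte ones among them, were left out. The number of lower pairs was 10 and lay between 7 and 12 in the other settings, and no called ratio changed direction. The astrocyte Adamts1 ratio of 1.84 ranged from 1.06, with barcodes above 10% mitochondrial UMIs left out, to 1.91, and was 1.20 without cluster 21. The endothelial Timp3 ratio of 0.41 ranged from 0.39 to 0.65, the last without the cells with a Plvap UMI. Adamts1 in Slc6a13 fibroblast-like cells ranged from 0.18 to 0.59 and lost its call with doublets kept, with cells holding 3 markers of their class and with list genes eligible for clustering. Timp3 in ependymal-like cells lost its call with CPM over all UMIs, TMM scaling, equal weight per cell and the 2-fold limit. Mmp14 in microglia-like cells lost it with equal weight per cell and the 2-fold limit, and Timp4 in ependymal-like cells with the 2-fold limit. Over all settings 669 recomputed ratios stayed within their counting interval and 27 did not, against 748 and 130 for levels and 160 and 10 for inhibitor shares. Genes highest in a fibroblast cluster in both libraries numbered 7 or 8 wherever both clusters were kept, while the exact highest class in each library was kept by 6 genes with equal weight per cell and by 8 to 10 in the other such settings. The settings without Plvap cells, with at least 2000 UMIs per endothelial-like cell, without astrocyte cluster 21, without microglial cluster 16 and without cells rich in Col1a1 were chosen after seeing the data. No paired analysis was possible because each genotype has 1 library. Depth limits the classes with few cells, where 3 UMIs correspond to 4.02 CPM in mutant and 5.08 CPM in control endothelial-like cells.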
